A study of Arabidopsis thaliana with 8 samples.

Results

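The tips of Arabidopsis thaliana inflorescence stems were compared between the cov mutant and the wild type, on 2 arrays of each genotype, which are 4 of the 8 arrays of a study on the role of COV in vascular patterning. The members were chosen by their labels alone, as stem tip arrays of either genotype, and every probe set of the table was considered. The other 4 arrays hold stem bases of the same genotypes and serve here for comparison. Wild type was Ler-0, and the second genotype is given by the name cov alone, with no allele, background or backcross, so that genotype and background cannot be told apart. All plants were at growth stage 6.10, grew on compost at 22 °C, 65% humidity and 24 hours of light, and received the insecticide Intercept. The labels do not say whether the arrays of a group came from separate plants, so the p-values measure the spread between these arrays, which may be technical.

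As background, the upper inflorescence stem is a young, elongating organ that carries the flower clusters, while the base is older and holds lignified xylem and fibres. COV1, the gene affected in cov, codes for an integral membrane protein, and its loss disturbs the spacing of vascular bundles and the tissue between them. Stems also express defence-associated wall proteins, glucosinolate enzymes and wall-modifying enzymes, and flowers add transcripts of anthers and pollen.

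Signal on the ATH1 array, a measure of transcript level per probe set, was compared after adding a pseudocount of 11.85 and taking log2. A probe set was called when its adjusted p, from limma over all 15923 tested probe sets with the Benjamini-Hochberg method, was under 0.05. Differences are cov minus wild type on this log2 scale with their standard error, and n = 2 arrays per group throughout. The pseudocount draws differences of dim genes toward 0. Detection calls were not used here, so a signal of a few units is printed as given.

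The tip label was checked against markers. The tapetum gene ATA27 read 1138 to 1501 on the 4 tip arrays and 0.7 to 3.9 on the base arrays, so the tip samples contained anther transcripts. The xylan gene IRX15 read 19.9 to 31.1 at the tip and 260 to 830 at the base. No shoot meristem marker was tested. The annotation used here names no probe set for COV1, LCV1, LCV2 or LCV3, so no level of the affected gene was available as a check of the genotype labels. Over the tested probe sets the cov tip arrays correlated at r = 0.978, the wild type tip arrays at 0.963 and pairs across genotypes at 0.939 to 0.951, which are correlations across probe sets of an array pair. In bulk tissue, fewer cells of a type and less RNA per cell cannot be told apart.

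In cov tips 290 probe sets were called (1.82% of those tested), of which 225 were higher (1.41%) and 65 lower (0.408%). Among the 8778 probe sets with exactly 1 gene, 119 were called (1.36%), 88 higher (1.0%) and 31 lower (0.353%). A difference of at least 4-fold was found for 38 of the raised and 16 of the lowered probe sets. The raised probe sets had medians of 46.6 and 43.1 on the wild type tip arrays against 140.0 and 150.4 in cov. Over all probe sets of the table, tested or not, the wild type tip arrays had medians of 48.2 and 49.2. Of the raised probe sets, 64 lay below 21.4, the filter on mean signal, in wild type tips. In the stem base the same 225 probe sets had medians of 270.6 and 240.6 in wild type and 367.3 and 297.1 in cov. The 65 lowered probe sets had medians of 190.2 and 243.6 in wild type tips, 55.3 and 72.8 in cov tips, and 17.3 to 19.5 on the 4 base arrays. These tip medians follow from the choice of called probe sets and are a description.

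**Figure D1:**
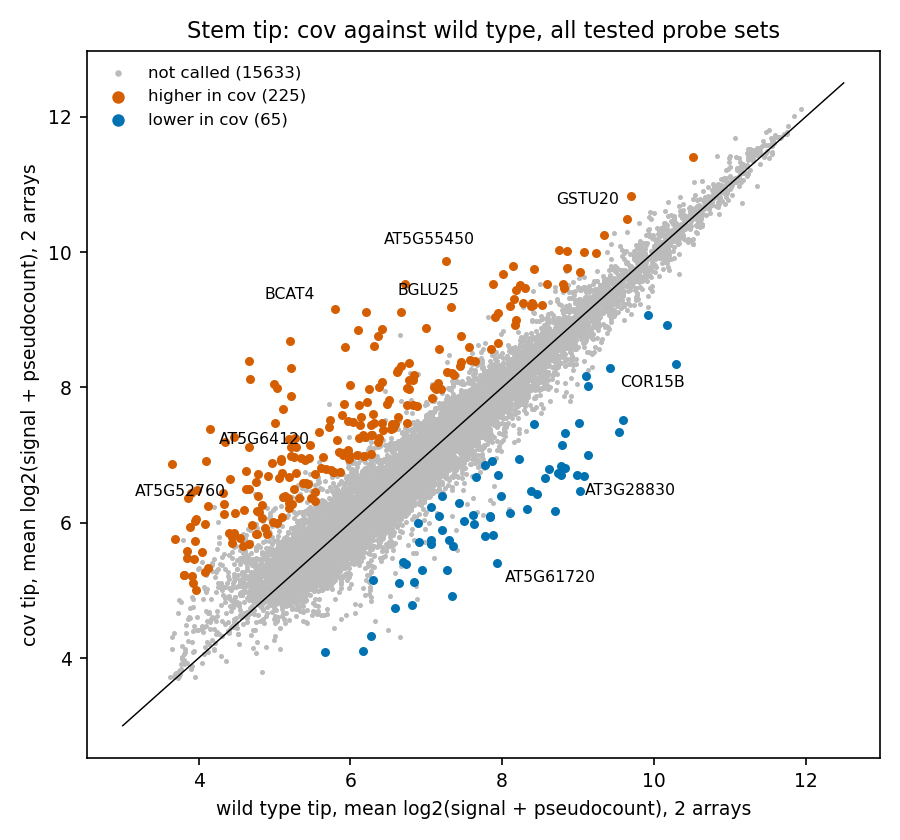
Mean log2(signal + pseudocount) over 2 arrays in wild type tips (horizontal axis) and cov tips (vertical axis) for each tested probe set, with the line of equal level. The 225 probe sets called higher in cov (orange) sit mainly at the lower wild type levels, and the 65 called lower (blue) at middle and upper levels.

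The calls leaned on each of the tip arrays. Of the 290 calls, 110 remained when cov tip array 1 was omitted, and 161 and 137 remained when the first or the second wild type tip array was. In every one of the 8 omissions 83 calls remained, 74 of them higher and 9 lower, and among probe sets with 1 gene these were 26 higher and 4 lower. For most genes named below whose call ended on omission of an array, the adjusted p without that array is given. The tip arrays are written as WT1, WT2, cov1 and cov2. Omissions are not given for AT5G38980, which was called at the threshold. The functional groups below were drawn among the called genes after their values were seen, so that their counts describe the calls and not whole families. With a pseudocount of 1 in place of 11.85, 7 of the 88 raised and 17 of the 31 lowered probe sets with 1 gene lost their call, and with no filter on dim probe sets 31 and 17 did. Tip arrays of the genotypes did not overlap for 6833 probe sets, 42.9% of those tested, so non-overlap of 2 against 2 arrays is a description only.

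Among the most raised in cov tips were genes of secreted protein families, namely chitinases, class III peroxidases and small lipid transfer family proteins. The 7 called genes grouped into these families were all higher, beside 88 of all 119 called probe sets with 1 gene. Uncalled members that the annotation gives by locus only were not counted. The 7 differences were 1.21 to 2.81 with a median of 2.51. The summed signal of the 7 genes was 2034 and 2296 on the cov tip arrays against 382 and 413 in wild type. CHI, here a chitinase gene, read 60.7 and 99.3 in cov tips and 3.5 and 4.3 in wild type tips (2.51 ± 0.26, adjusted p = 0.00064). Its relative AT2G43620, also of the chitinase family, read 145 and 141 in cov tips and 16.7 and 5.4 in wild type (2.80 ± 0.37, adjusted p = 0.00275). At the base CHI was also raised, at 410 and 316 against 96.1 and 151, whereas AT2G43620 stayed between 3.7 and 20.1 on all base arrays.

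The peroxidase gene AT5G64120 read 114 and 103 in cov tips against 6.8 and 4.0 in wild type (2.81 ± 0.22, adjusted p = 0.000113). Its base levels of 96.5 and 68.9 in cov and 27.2 and 32.5 in wild type also differed (1.17 ± 0.22, adjusted p = 0.0116). The tip difference of AT5G64120 was larger than its base difference by 1.64 ± 0.31 (adjusted p = 0.026). AT5G64110, directly beside AT5G64120, was not called at the tip (0.64 ± 0.27, adjusted p = 0.404). A second peroxidase gene, AT4G33420, was called higher at the base by 1.02 (adjusted p = 0.0146). At the tip it was raised by 1.21 ± 0.20 (adjusted p = 0.0113), at 80.9 and 87.4 against 29.1 and 30.2. That call ended without WT1 (0.0697), WT2 (0.0583), cov1 (0.108) or cov2 (0.158). PRX52 and PRXR1, peroxidase genes from the pathway list, were not called, with differences of 0.97 ± 0.26 (adjusted p = 0.113) and 0.12 ± 0.17 (adjusted p = 0.886).

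Lipid transfer family genes code for small secreted proteins that bind lipids. AT5G55450 read 876 and 980 in cov tips against 162 and 123.4 in wild type, a difference of 2.61 ± 0.16 (adjusted p = 1.64e-05). AT3G18280 read 533 and 607 against 127 and 175 (1.85 ± 0.20, adjusted p = 0.000907). Both were also called higher at the base, by 1.34 and 0.80. AT3G53980 was raised at the tip, at 225 and 278 against 37.3 and 70.4 (2.04 ± 0.23, adjusted p = 0.00113), while its base levels of 732 and 648 in cov lay below the 1028 and 1246 of wild type without being called (-0.71 ± 0.23, adjusted p = 0.111). The difference between its tip and base differences was 2.75 ± 0.32 (adjusted p = 0.0022).

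Of the glucosinolate genes, BCAT4 and AOP3 were raised at the tip, 2 of the 7 tested members of the list on glucosinolates and myrosinase, which had a median of 0.32 against 0.01 over 8697 genes. Beside this and each list count below, 88 of the 8697 genes were called higher at the tip (1.01%) and 30 lower (0.345%). At the base 5 of the 7 were called higher, beside 237 of the 8697 genes, and the list had a median of 0.86 against 0.01. Glucosinolates are sulphur-rich defence compounds of the cabbage family. BCAT4, which acts in the elongation of methionine at the start of aliphatic glucosinolate synthesis, had the largest tip difference among called probe sets with 1 gene, at 585 and 536 in cov against 37.7 and 51.0 in wild type (3.36 ± 0.16, adjusted p = 3.97e-06). Its base levels were far higher, 3645 and 4023 in cov and 2652 and 2346 in wild type. The base difference of 0.62 ± 0.16 (adjusted p = 0.0497) was smaller than that at the tip by 2.74 ± 0.22 (adjusted p = 0.000834). AOP3, which modifies glucosinolate side chains, read 576 and 497 in cov tips against 240.0 and 230.2 in wild type (1.15 ± 0.15, adjusted p = 0.00305), and its call ended without cov1 (0.056). Its difference of 1.5 at the base was not told apart from that at the tip (adjusted p = 0.503).

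Around this pathway, APS4, an ATP sulfurylase gene of sulphate assimilation, was 145 and 168 in cov tips against 77.8 and 83.4 (0.86 ± 0.15, adjusted p = 0.0173). Omission of any 1 of the tip arrays ended this call, with adjusted p of 0.0647 to 0.222, as did the fit without a variance trend (0.0516). Of 8 tested glutathione transferase genes, whose products conjugate glutathione to other compounds, GSTU20 and GSTU27 were raised, by 0.85 ± 0.16 (adjusted p = 0.0249) and 0.81 ± 0.16 (adjusted p = 0.0261). GSTU20 read 1592 and 1287 against 719 and 864, and GSTU27 262 and 295 against 163 and 145. Both were also called higher at the base, by 1.26 (adjusted p = 0.00141) and 0.61 (adjusted p = 0.0471). The adjusted p without 1 tip array was 0.0502 to 0.287 for GSTU20 and 0.0716 to 0.298 for GSTU27. Without the trend it was 0.0681 and 0.061, and GSTU20 had 0.082 with no filter. The list had a median of 0.14, and its other members were not called.

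The raised calls also held kinase genes. Of the raised genes, 11 were grouped as receptor-like, wall-associated or related kinases after their values were seen. Other called kinase genes may lie outside this group, so its shared direction describes the grouping and not all called kinases. Of all 119 called probe sets with 1 gene, 88 were higher. The 11 genes had a median of 1.43 and summed signals of 869 and 896 in cov against 255 and 223 in wild type. AT4G08850, a leucine-rich repeat receptor kinase gene, read 132 and 150 in cov tips against 33.6 and 20.7 (1.99 ± 0.20, adjusted p = 0.00064). Its relative AT1G35710 read 109 and 121 against 24.2 and 26.5 (1.77 ± 0.20, adjusted p = 0.0012). The kinase gene AT5G25440 read 71.6 and 86.2 against 9.4 and 18.4 (1.84 ± 0.21, adjusted p = 0.0012) and was the only one of the 11 also called at the base, where it was higher by 0.87. These 3 genes kept their call in every omission.

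AT1G69730 and AT1G16260, of the wall-associated kinase family that spans wall and membrane, were raised by 2.12 ± 0.32 (adjusted p = 0.0062) and 1.43 ± 0.22 (adjusted p = 0.007). The first read 77.3 and 73.3 in cov tips against 14.6 and 3.4, and the second 53.5 and 77.7 against 12.7 and 21.1. AT1G69730 was not called without WT2 (0.0537) or cov1 (0.0599), nor AT1G16260 without WT1 (0.0627) or cov2 (0.101). The S-locus lectin kinase type genes AT4G11900, AT1G11330 and AT2G19130 were raised by 1.52 ± 0.25 (adjusted p = 0.0107), 1.19 ± 0.21 (adjusted p = 0.0139) and 0.98 ± 0.15 (adjusted p = 0.00766). AT4G11900 lost its call without WT2 (0.0679) or cov1 (0.151), AT1G11330 without any 1 tip array (0.0674 to 0.144) or with no filter (0.0506), and AT2G19130 without WT2 (0.055), cov1 (0.0881) or cov2 (0.0869).

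A mixed set of 8 called genes, picked from the raised calls for products linked to defence, had a median difference of 1.60 at the tip and 0.06 at the base. ECS1, which codes for a wall protein, read 381 and 373 in cov tips against 52.6 and 85.9 (2.29 ± 0.28, adjusted p = 0.00176), and its base levels overlapped between genotypes, 887 and 1059 against 1334 and 685. RING1, a ubiquitin ligase gene, read 195 and 223 at the tip against 58.1 and 67.7 (1.56 ± 0.17, adjusted p = 0.000821), and 1113 and 866 against 1112 and 997 at the base. For both genes the tip and base differences were called apart, by 2.27 ± 0.40 (adjusted p = 0.0175) and 1.66 ± 0.24 (adjusted p = 0.00641). The ankyrin repeat gene AT1G10340 read 50.1 and 48.9 in cov tips against 3.8 and 2.1 (2.05 ± 0.31, adjusted p = 0.00621), with its call lost without WT2 (0.0584) or cov1 (0.056) or with the pseudocount at the table median (0.136). Of the pathway lists linked to defence, 3 had 0 calls by limma. These held 5 tested WRKY factor genes, 6 defensin and thionin genes and 1 gene of the pathogenesis-related and salicylic acid list. The list of chitinases and glucanases held 1 tested gene, CHI, which was called (above), and that of glucosinolates and myrosinase had 2 of 7 called. The lectin gene AT5G03350 went the other way along the stem, with 280 and 214 against 70.4 and 71.6 at the tip and 383 and 224 against 20.7 and 13.3 at the base. Its tip difference of 1.63 ± 0.25 (adjusted p = 0.00626) lay below the base difference of 3.42 (tip minus base -1.78 ± 0.35, adjusted p = 0.0297), and the tip call was lost without WT1 (0.0548), WT2 (0.052) or cov1 (0.0881).

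AT5G52760 and AT5G52750, adjacent genes for proteins with a heavy-metal-associated domain, were both raised. AT5G52760 read 96.0 and 113 in cov tips and 0.8 and 0.7 in wild type tips (3.21 ± 0.36, adjusted p = 0.00113), although wild type bases reached 286 and 241. AT5G52750 read 83.5 and 104 against 15.6 and 15.5 (1.94 ± 0.35, adjusted p = 0.0183), and omission of any 1 tip array ended its call (0.0834 to 0.155), as did no filter (0.0758) or the pseudocount at the table median (0.113). Their further tested neighbours AT5G52740, AT5G52780 and AT5G52790 were not called, with differences between -0.09 and 0.14. AT1G65490 and AT1G65500, another adjacent pair, rose by 2.75 ± 0.25 (adjusted p = 0.000313) and 2.57 ± 0.19 (adjusted p = 8.47e-05), and AT1G65510 beside them had 0.46 ± 0.40 (adjusted p = 0.778). Of the pair, AT1G65500 was also called higher at the base, by 1.61 (adjusted p = 0.00097).

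Wall-modifying proteins accounted for 7 raised calls, with differences of 1.0 to 2.09. The list written for pollen pectin enzymes held 3 tested members, the pectin methylesterase genes ATPMEPCRB, PMEPCRF and PME61, and all 3 rose, with a median of 1.57. Their products remove methyl groups from wall pectin. ATPMEPCRB read 221 and 188 in cov tips against 52.5 and 45.2 (1.83 ± 0.21, adjusted p = 0.00113), and was also called higher at the base, by 0.85 (adjusted p = 0.037). PMEPCRF read 300 and 332 against 140 and 67.7 (1.57 ± 0.25, adjusted p = 0.00754), and PME61 131 and 161 against 68.2 and 64.6 (1.0 ± 0.15, adjusted p = 0.00587). PMEPCRF lost its call without cov1 (0.056) or cov2 (0.0798), and PME61 without cov2 (0.0931). PMEPCRF and PME61 were brighter at the base than at the tip in both genotypes, with base signals of 868 and 819 in cov and 569 and 659 in wild type for PMEPCRF, and 1148 and 1140 against 1537 and 1373 for PME61.

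Of 21 tested xyloglucan transglucosylase and expansin genes, whose products loosen or rejoin wall polymers, XTH18 and XTH16 rose and the list had a median of 0.03. XTH18 read 53.5 and 56 in cov tips against 5.7 and 2.0 in wild type, and 11.2 to 19.1 on all base arrays. Its tip difference of 2.09 ± 0.28 exceeded that at the base by 1.99 ± 0.40 (adjusted p = 0.0321). XTH16 read 597 and 560 against 312 and 223, with an adjusted p of 0.0271 that rose to 0.148 without WT2, 0.221 without cov1 and 0.173 without cov2, and to 0.0516 without the trend, 0.0742 with no filter and 0.102 with a pseudocount of 1. EXO, a gene of brassinosteroid-responsive growth, read 1006 and 709 against 313 and 350 (1.32 ± 0.20, adjusted p = 0.00658), and was raised at the base from 5.3 and 5.7 in wild type to 65.6 and 47.8 in cov. Its tip call was lost without WT1 (0.0674) or cov1 (0.109).

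The beta-glucosidase genes BGLU25 and BGLU45 were raised at the tip and not called at the base. BGLU25 read 640 and 458 in cov tips against 89.1 and 91.0 in wild type tips and 95.1 to 115 on all 4 base arrays (2.44 ± 0.18, adjusted p = 8.61e-05). BGLU45, whose product acts on monolignol glucosides, the stored precursors of lignin, read 84.5 and 106 against 20.7 and 23.9 at the tip (1.65 ± 0.18, adjusted p = 0.00104), and 316 and 313 against 444 and 337 at the base. For BGLU25 and BGLU45 the tip difference exceeded the base difference by 2.39 ± 0.26 (adjusted p = 0.00171) and 1.94 ± 0.26 (adjusted p = 0.00456). The other 9 of the 11 tested beta-glucosidase genes were not called.

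The cytochrome P450 gene CYP71B23 was the 1 called member of 11 tested in its list, at 54.6 and 48.6 against 6.3 and 3.9 (1.91 ± 0.19, adjusted p = 0.00064). Its neighbour CYP71B22 was not called (-0.39 ± 0.23, adjusted p = 0.622). AT2G41090, an EF-hand calcium-binding protein gene, read 765 and 842 in cov tips against 258 and 235 (1.66 ± 0.16, adjusted p = 0.000434) with a base difference of 0.00 ± 0.16. The sucrose exporter gene SWEET11 was the 1 called of 14 sugar transporter genes, at 609 and 871 against 200.3 and 252 (1.65 ± 0.30, adjusted p = 0.0208), and was also higher at the base by 1.47. Omission of any 1 tip array ended the call of SWEET11, with adjusted p of 0.0533 to 0.203, as did the fit without the trend (0.0516) or with no filter (0.0794).

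**Figure D2:**
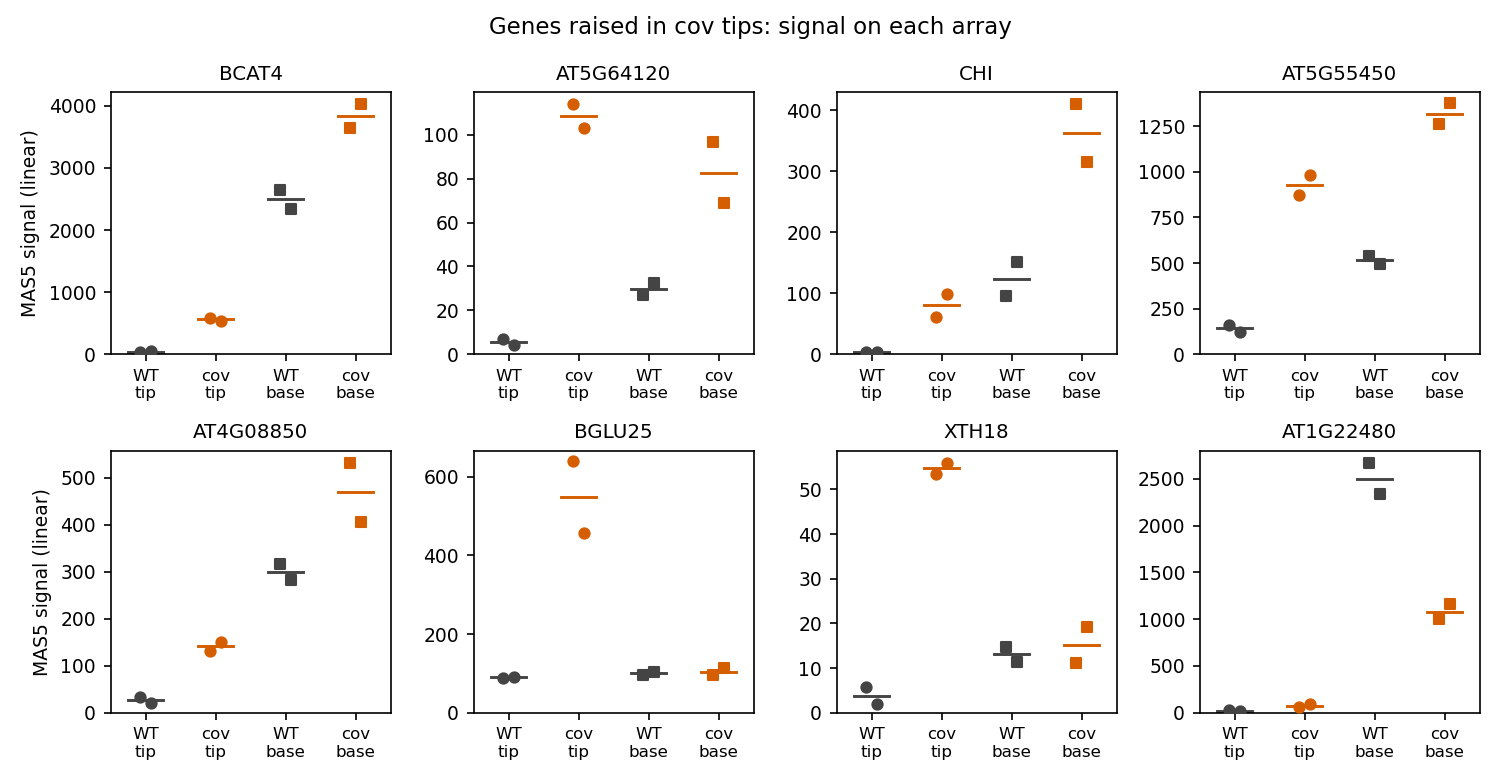
MAS5 signal (linear, vertical axis) on each array for 8 genes raised in cov tips, with a line at the mean of the 2 arrays of a group. Tips are circles and bases squares, cov is orange and wild type dark grey. BCAT4, CHI, AT4G08850 and AT1G22480 have higher levels at the base than at the tip in both genotypes, while BGLU25 and XTH18 have their highest levels in cov tips.

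In the opposite direction, 17 of the 31 probe sets with 1 gene that were lowered in cov tips were grouped, after their values were seen, as DUF1216, pectin-acting, and late pollen or LEA type genes. Among the pathway lists, that of pollen pectin enzymes rose in 3 of 3 tested members (above), and that of pollen coat, Ole e 1 and late pollen proteins had 0 of 2 called, SWEET8 and OLEO3, with a median of -0.06. The DUF1216 genes, a family named for a domain of unknown function, had 5 called members, all lower, by 1.65 to 2.53 on the log2 scale with a median of -2.27. AT3G28830 read 80.3 and 107 in cov tips against 338 and 718 in wild type (-2.27 ± 0.31, adjusted p = 0.00324). AT3G28840, directly beside it, read 15.9 and 20.9 against 111 and 201 (-2.42 ± 0.31, adjusted p = 0.00216). AT3G28980 read 55.3 and 98.5 against 302 and 380 (-2.03 ± 0.24, adjusted p = 0.00162). These 3 genes kept their call in every omission, and AT3G28850 next to AT3G28840 was not called (-0.21 ± 0.37, adjusted p = 0.919). AT5G61720, the most lowered among called probe sets with 1 gene, read 19.9 and 44.7 against 151 and 354 (-2.53 ± 0.38, adjusted p = 0.00621), and AT3G28790 108 and 156 against 317 and 585 (-1.65 ± 0.31, adjusted p = 0.0235). AT5G61720 was not called without WT2 (0.0705) or cov1 (0.0742), nor AT3G28790 without WT2 (0.154), cov1 (0.22) or cov2 (0.0704). At the base the 5 genes together read 34.2 to 37.3 on each array.

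A further 5 lowered genes belong to pectin-acting families or to their inhibitor families. The polygalacturonase gene AT3G07820, whose product cuts pectin, read 33.5 and 98.2 in cov tips against 180 and 384 (-1.96 ± 0.41, adjusted p = 0.0421). The pectate lyase gene AT3G01270 read 61.5 and 127 against 272 and 493 (-1.91 ± 0.34, adjusted p = 0.0151), and the pectinesterase family gene AT5G07430 5.3 and 32.0 against 89.4 and 114 (-2.04 ± 0.39, adjusted p = 0.0264). AT3G07820 lost its call without WT2 (0.217), cov1 (0.302) or either wild type base array (0.0858 and 0.0861). AT3G01270 lost it without WT2 (0.117) or cov1 (0.143). AT5G07430 lost it without WT1 (0.138), WT2 (0.163), cov1 (0.175) or either wild type base array (0.0529 and 0.0526). The inhibitor family genes AT1G10770 and AT5G62360 had differences of -1.47 ± 0.31 (adjusted p = 0.0425) and -1.28 ± 0.26 (adjusted p = 0.0368). AT1G10770 was not called without WT1, WT2, cov1 or either wild type base array (0.0792 to 0.28), nor AT5G62360 without any 1 tip array or either wild type base array (0.0736 to 0.301).

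Late pollen and late embryogenesis abundant (LEA) type genes gave 7 lowered calls with a median of -1.92. LEA proteins accumulate in drying seeds and pollen. AT5G45880, of the Ole e 1 pollen protein family, read 61.2 and 144 in cov tips against 311 and 553 (-2.0 ± 0.39, adjusted p = 0.0275). AT5G19580, related to glyoxal oxidases, read 81.0 and 123.3 against 314 and 622 (-2.02 ± 0.29, adjusted p = 0.00508), and AT5G53820, of LEA type, 52.7 and 50.5 against 149 and 231 (-1.64 ± 0.26, adjusted p = 0.00825). The tetraspanin gene TET15 was the 1 called of 10 tested tetraspanins, at 8.8 and 2.6 against 45.8 and 77.5 (-2.05 ± 0.32, adjusted p = 0.00677). AT5G45880 was not called without WT1 (0.0524), WT2 (0.173) or cov1 (0.224), and AT5G19580 without cov1 (0.0614). AT5G53820 was not called without WT2 (0.105), cov1 (0.0881) or cov2 (0.0968), and TET15 without WT2 (0.0902) or cov2 (0.0838).

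Over these 17 genes of the DUF1216, pectin-acting and late pollen types, the summed signal was 791 and 1397 on cov tip arrays 1 and 2, 3446 and 5830 on wild type tip arrays 1 and 2, and 198 to 212 on the base arrays. The arrays of a genotype differed by more than 1.5-fold from each other in this sum, and its difference between genotypes follows from the choice of lowered genes. Of the 17 calls, 11 ended with a pseudocount of 1 (adjusted p 0.0539 to 0.358), 10 with no filter (0.0707 to 0.134), 4 without the trend (0.0516 to 0.0681) and 2 in the fit on the tip arrays alone (0.078 and 0.0836). The calls of AT3G28830, AT3G28840, AT3G28980, AT5G19580 and TET15 remained in each of these alternatives. Beside them, the tapetum list had 0 of 4 tested members called by limma, with a summed signal of 1696 to 1712 in cov tips and 1822 to 2150 in wild type tips. ATA27 read 1138 and 1177 in cov tips against 1182 and 1501 (-0.20 ± 0.19, adjusted p = 0.796), and SWEET8, a sugar exporter gene of the tapetum, 365 and 378 against 467 and 468 (-0.32 ± 0.19, adjusted p = 0.622). AMS, a regulator of the tapetum, read 56.8 and 39.0 against 59.8 and 44.0 (-0.10 ± 0.32, adjusted p = 0.962). The flower marker SPT read 97.5 and 76.6 against 67.2 and 93.9, so that the genotypes overlapped. Whether the number or stage of flowers differed between the tip samples was not tested.

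**Figure D3:**
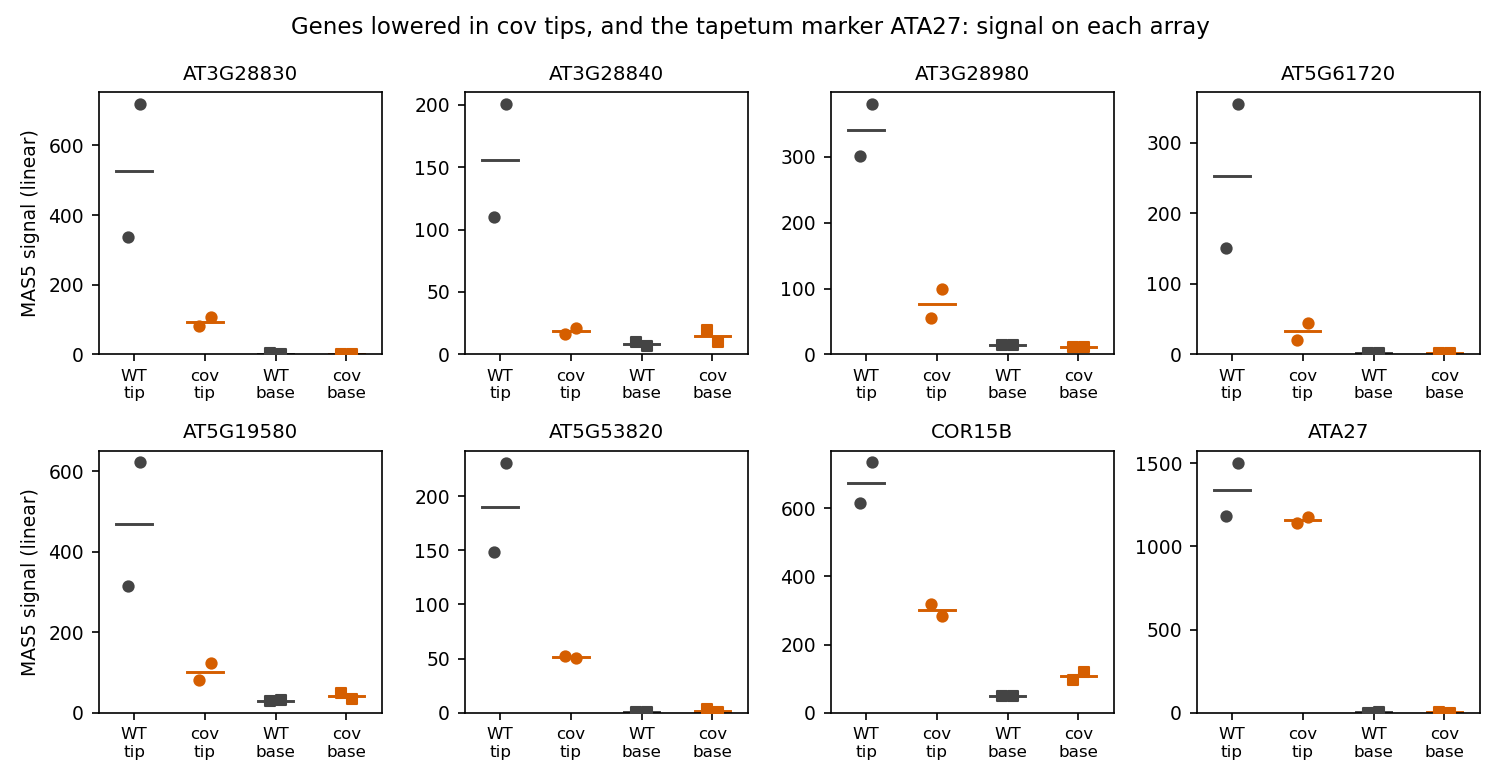
MAS5 signal (linear, vertical axis) on each array for 7 genes lowered in cov tips and for the tapetum marker ATA27, with a line at the mean of the 2 arrays of a group. Tips are circles and bases squares, cov is orange and wild type dark grey. The 4 DUF1216 genes shown, AT5G19580 and AT5G53820 are below both wild type tip arrays in cov tips, whereas ATA27 lies between 1138 and 1501 on all tip arrays.

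The other 14 of the 31 lowered probe sets fell outside these groups. Of them, 4 probe sets of 3 genes were lower at the tip and the base, 5 were lower at the tip and higher at the base, and 5 were not called at the base. The last were AT1G72110, of the wax ester synthase family (-1.74 ± 0.24, adjusted p = 0.00373, and 0.0545 without WT2), and AT2G16750, AT1G04985, AT2G28410 and AT1G52510, with differences of -1.38 to -0.84, whose calls ended without any 1 tip array (0.0694 to 0.411). AT4G02340, an epoxide hydrolase family gene, read 42.0 and 41.4 in cov tips against 110 and 136, and 69.5 and 64.3 in cov bases against 222 and 176. Its difference was -1.32 ± 0.18 at the tip (adjusted p = 0.00336) and -1.42 ± 0.18 at the base (adjusted p = 0.00132), and the tip call remained in every omission. It lies directly beside ATPMEPCRB, which was raised. The hydrolase gene AT2G35450 was lower in 2 probe sets, by 1.15 and 1.32 on the log2 scale at the tip. The brighter one read 62.7 and 69.6 in cov tips against 151 and 172 (adjusted p = 0.00483, and 0.071 without cov1), and the other 43.1 and 51.9 against 114 and 162 (adjusted p = 0.0428, and 0.0816 to 0.282 without any 1 of the tip or wild type base arrays, and 0.0674 to 0.181 without the trend, with no filter or with a pseudocount of 1).

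Another 5 genes were lowered at the tip and raised at the base, and all 5 passed the test of the tip against the base difference. COR15B, whose product protects chloroplasts in the cold, read 319 and 283 in cov tips against 616 and 735 in wild type (-1.13 ± 0.17, adjusted p = 0.00543), and 96.5 and 121 in cov bases against 48.5 and 49.3. The 2 differences were 2.11 apart on the log2 scale (-2.11 ± 0.24, adjusted p = 0.00175). Its neighbour and relative COR15A was not called at the tip (-0.34 ± 0.19, adjusted p = 0.597). AT5G11420, of the wall-associated DUF642 family, read 265 and 230 in cov tips against 588 and 512, and 87.3 and 127 in cov bases against 11.4 and 24.7 in wild type. The aspartyl protease family gene AT5G07030 read 573 and 485 against 1053 and 876 at the tip and 101 and 115 against 20.6 and 31.5 at the base. The tip call of COR15B was lost without WT2 (0.0524) or cov2 (0.0798), and those of AT5G11420 and AT5G07030 without any 1 tip array (0.111 to 0.336 and 0.0844 to 0.432). The calls of AT5G11420 and AT5G07030 also ended without the trend (0.0806 and 0.0985), with no filter (0.108 and 0.091) and with a pseudocount of 1 (0.148 and 0.102).

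The comparison at the base shares no array with that at the tip, although both draw on 1 fit for the spread and the labels do not say whether tips and bases came from the same plants. At the base 881 probe sets were called (5.53%), 545 higher (3.42%) and 336 lower (2.11%). Of the 225 raised at the tip, 64 were also higher at the base, which is 28.4% of the tip list and 11.7% of the base list, and 5 were lower (2.22% and 1.49%). The median base difference of the 225 was 0.35, against 0.02 over all tested probe sets, and 172 of them lay above 0. Of the 65 lowered at the tip, 9 were lower at the base (13.8% of the tip list and 2.68% of the base list), 6 were higher (9.23% and 1.1%), and 32 had both base means below the filter threshold of 21.4.

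The tip and base differences were called apart from each other for 342 probe sets (2.15%), 166 with a higher tip difference (1.04%) and 176 with a lower one (1.11%). Of these 342, 92 were called at the tip, 20 of them at the base as well and 72 at the tip alone, while 217 were called at the base alone and 33 at neither. AT1G22480, a cupredoxin family gene, was raised at the tip and lowered at the base. It read 58.1 and 89.5 in cov tips against 26.6 and 20.7 (1.25 ± 0.20, adjusted p = 0.00716), and 997 and 1162 in cov bases against 2669 and 2332 (-1.20 ± 0.20, adjusted p = 0.00521). Its tip call was lost without WT2 (0.0662) or cov2 (0.0866).

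**Figure D4:**
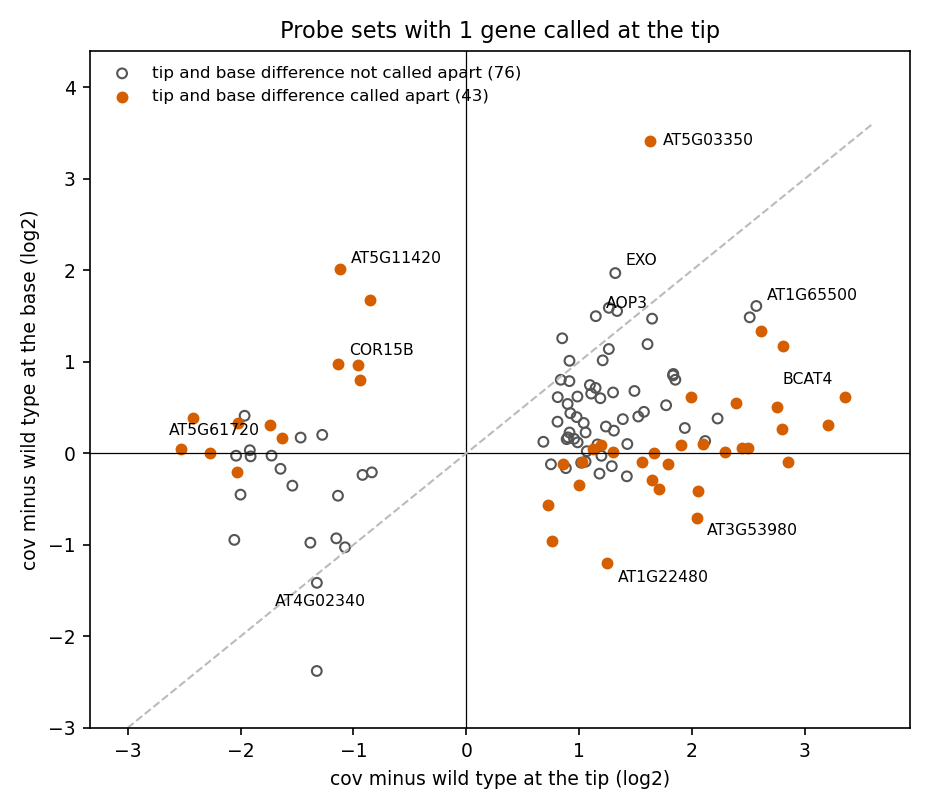
Difference of cov from wild type at the tip (horizontal axis) and at the base (vertical axis), both log2, for the 119 probe sets with 1 gene called at the tip, with a dashed line of equal difference. The 43 filled points are those whose tip and base differences were called apart, and BCAT4 lies farthest to the right at 3.36 with a base difference of 0.62.

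Most pathway lists held few calls at the tip. Over 8697 genes taken at 1 probe set each, 88 were higher (1.01%) and 30 lower (0.345%), with a median of 0.01. Lists on vascular patterning (6 tested genes, median 0.02), secondary walls (4 genes, 0.25) and auxin (7 genes, -0.22) had 0 calls by limma, beside 1711 probe sets with an unadjusted p under 0.05. CLE41 and CLE44, phloem-made peptide genes that act on the cambium, differed by 0.35 ± 0.16 (adjusted p = 0.487) and 0.50 ± 0.21 (adjusted p = 0.409). IRX15 and IRX15-L, needed for xylan in secondary walls, differed by 0.28 ± 0.21 (adjusted p = 0.743) and 0.36 ± 0.18 (adjusted p = 0.515). The WRKY factor list had a median of 0.48 and the defensin and thionin list one of 0.33.

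Of the hormone lists, jasmonate and wounding had 1 call among 4 tested genes. The called gene, OPCL1, was also called higher at the base, by 0.71 (adjusted p = 0.0397). OPCL1, which acts in jasmonate synthesis, read 149 and 133 in cov tips against 68.6 and 47.4 (1.15 ± 0.18, adjusted p = 0.0064), and was not called without cov1 (0.0892). Lists of nuclear photosynthesis genes (18, median -0.10), chloroplast genome genes (69, median 0.14), cell division genes (11, median 0.05) and ribosomal protein genes (15, median 0.01) had 0 calls. Lists of lipid transfer proteins, receptor-like kinases, resistance genes and DUF1216 genes matched no named gene, because the annotation gives those genes by locus only, so that the uncalled members of these families were not counted.

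**Figure D5:**
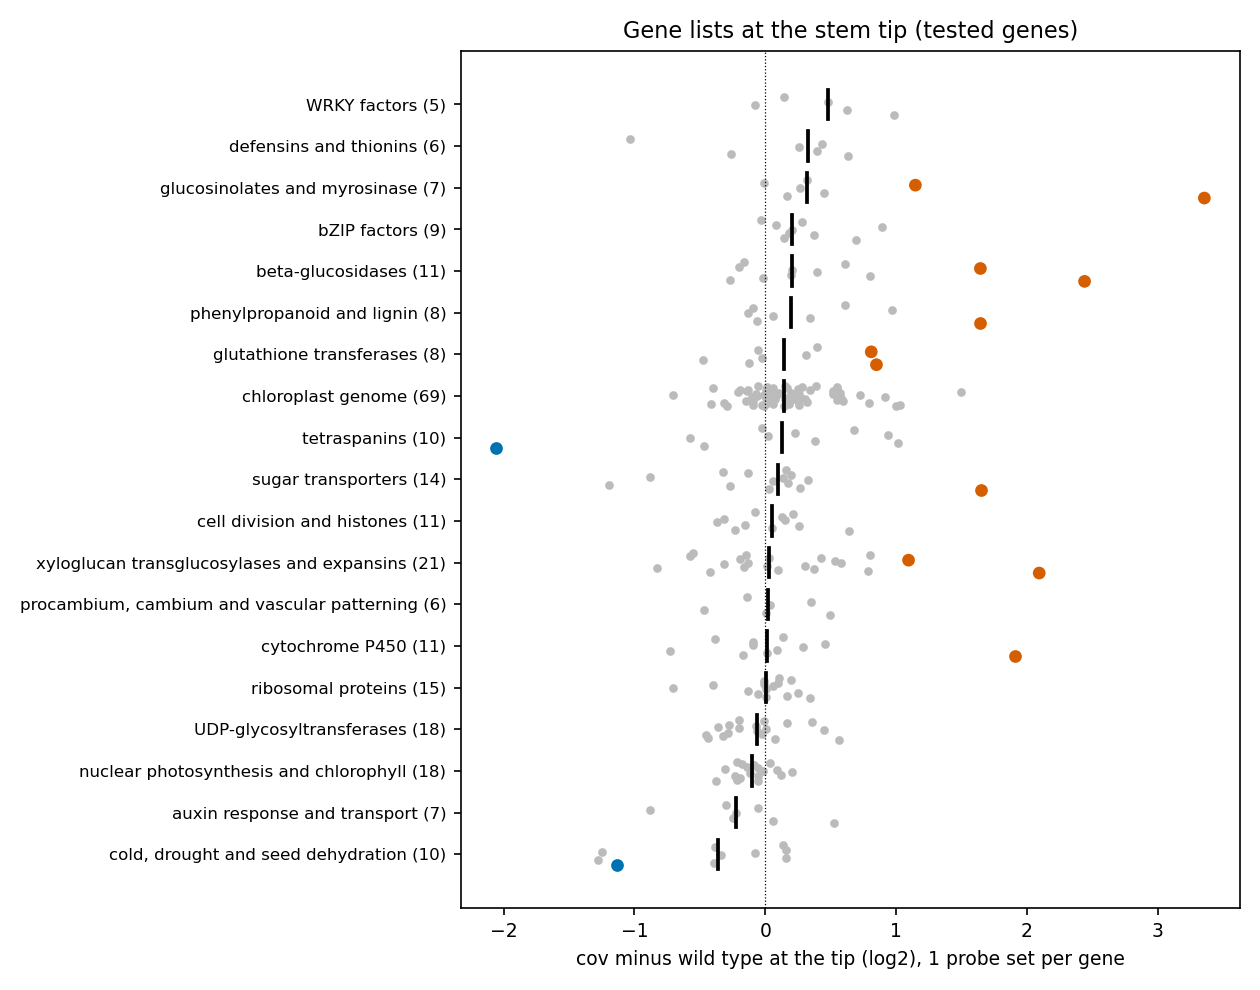
Difference of cov from wild type at the tip (log2, horizontal axis) for each tested gene of the lists with at least 5 tested genes, with the number tested in brackets and a black line at the median. Called genes are orange (higher) or blue (lower), and the list medians lie between -0.36 and 0.48.

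Of 49 much changed genes considered, 44 had at least 1 tested gene within 3 positions on the chromosome. They formed 5 pairs of near neighbours among themselves, such as AT3G28830 with AT3G28840 and ATPMEPCRB with AT4G02340. Beside the 1.36% called among all tested probe sets with 1 gene, 2 of the 89 tested neighbours that were not themselves among the 49 were called. These were AT5G19250, raised by 0.68 ± 0.14 (adjusted p = 0.0356) beside AT5G19240, which was raised by 2.39 ± 0.21 (adjusted p = 0.000313), and AT5G11410, a kinase gene near AT5G11420. The first pair codes for related proteins with a membrane anchor. Omission of any 1 tip array ended the call of AT5G19250 (0.116 to 0.322) and of AT5G11410 (0.0674 to 0.306), and so did no filter (0.0616 and 0.0626), while AT5G19240 kept its call. Over the chromosomes, called genes made up 1.23% (chromosome 4) to 1.52% (chromosome 5) of those tested. Within 100 genes on either side of COV1, 2 of 58 tested genes were called. One was AT2G20142, a TIR domain gene among the 10 nearest on that side, at 97.8 and 131 in cov tips against 19.6 and 35 (1.71 ± 0.28, adjusted p = 0.01), which was not called without WT1 (0.102) or cov2 (0.114).

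At the threshold, AT5G38980 was called with an adjusted p of 0.0499, at 980 and 1020 in cov tips against 663 and 524. This call ended without the trend, with no filter, with median centring and with either other pseudocount. It also ended in the fit on the tip arrays alone and with the replicate block, and remained with quantile normalization. AT5G46780 lay just outside with 0.0503, at 175 and 227 in cov tips against 84.8 and 71.3.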

How the data were processed

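Values are the authors' deposited array intensity, linear and made with MAS5, per the submitters' processing notes, which name no version. No column lacked a sample. Depth has no meaning for arrays, and the number of arrays limits the precision. A pseudocount of 11.85 (0.25 of the table median) was added before log2. Of the non-control probe sets, 6823 with a mean signal over all 8 arrays under 21.36 (the 30th percentile) were left out, and 15923 were tested. A probe set could pass this filter through a single group in which it was high, as XTH18, AT2G43620 and AT3G28840 did. All 4 group means were fitted with limma 3.58.1 in R 4.3.3 (lmFit, eBayes with trend), with 4 residual degrees of freedom and Benjamini-Hochberg adjustment over all tested probe sets, two-sided. With 1 array left out, the fit pools the spread, so a lone array is assumed to vary like the other groups.

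Of the tested probe sets 8778 had 1 gene in the platform annotation, 301 several and 6844 none. Symbols came from RefSeq on TAIR10.1, used for names and gene order only. The arrays were taken by their labels, whereas the gene lists and their members were chosen with earlier results of these data known. From the lists, 3 kinds of false match were removed after the matches were seen (methionine enzymes among thionins, cyclophilins among P450 genes, organelle genes in the nuclear list). Named genes are drawn from the 25 most raised and 25 most lowered called genes, called or leading members of each list, neighbours within 3 positions, those nearest the threshold, and the 8 highest and lowest in the tip against base test. Other called genes are named as examples of groups drawn after their values were seen.

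The fit was tested on simulated data for the tip comparison over 15923 probe sets. It recovered 2% of 50 probe sets changed by 1.5-fold, 40% at 2-fold, 96% at 4-fold and 96% at 8-fold, and 8 of 125 calls (6.4%) were unchanged probe sets. The changed probe sets were drawn only from those with a mean level above the median, so the recovery rates do not cover dimmer ones. Residual spreads were shuffled among probe sets, so any link between level and spread was not kept, and the rates may differ in the real data. Alternatives changed the trend, centring, normalization, pseudocount, filter, arrays in the fit and the replicate block.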

Additional observations from a re-analysis of the deposited data

Results flagged for a closer look

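The difference of cov from wild type was called apart between tip and base for 342 probe sets by limma's interaction contrast. Among probe sets with 1 gene, the tip difference exceeded the base difference most for AT3G48640 (by 2.95 on the log2 scale), AT5G52760 (2.89), AT1G80170 (2.87), AT1G64360 (2.86), AT3G53980 (2.75), BCAT4 (2.74), CML41 (2.62) and AT2G43620 (2.53). For AT1G80170 and AT1G64360 the tip difference was not called (0.86 ± 0.23 and 0.07 ± 0.28) and the base difference was -2.01 and -2.79. CML41, a calmodulin-like gene, had 1.14 ± 0.26 at the tip, which was not called (adjusted p = 0.0618), and was lowered at the base with -1.49.

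The tip difference lay farthest below the base difference for AT1G29670 (-3.96), AT4G21650 (-3.49), AT5G11420 (-3.13), the thionin gene THI2.1 (-2.86), AT2G10940 (-2.85), AT3G28840 (-2.81), AT5G63180 (-2.68) and AT5G59330 (-2.61). Of these, AT5G11420 and AT3G28840 were called at the tip. AT2G10940 read 1230 in cov tips against 1269 in wild type tips on average, and 307.7 against 34.4 at the base.

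Omission of single arrays ended the interaction call of 6 of these 16 genes. For AT3G48640 these were the arrays of cov tips, wild type bases, wild type tip 2 and cov base 2 (adjusted p 0.0751 to 0.161), and for AT5G52760 the tip arrays and the wild type base arrays (0.0515 to 0.0905). For AT2G43620 they were the tip arrays, wild type base 2 and cov base 1 (0.0515 to 0.148), and for THI2.1 the cov tips, wild type tip 2, wild type base 1 and cov base 1 (0.0505 to 0.12). For AT5G63180 they were the tip arrays, wild type base 1 and cov base 2 (0.0567 to 0.0911), and for AT5G59330 the wild type tips, cov tip 2 and cov base 2 (0.065 to 0.0938). The other 10 genes kept the interaction call in all 8 omissions. The tip call of AT3G48640 ended without wild type tip 2 or cov tip 2.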

How the results depend on the processing

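The count of 290 tip calls stayed within 1.5 times, from 203 to 354, in the settings with all arrays or the tip arrays only. It was 203 with no filter, 221 without the trend, 281 with median centring, 319 with quantile normalization and 339 on the tip arrays alone. With a pseudocount of 1 it was 262 (230 higher, 32 lower) and with the table median 302 (198 higher, 104 lower), so the 65 lower calls moved by over 1.5 times in both. With the replicate block it was 354, and the tip-against-base count was 452. The deviations of same-numbered arrays correlated at 0.162 at the tip and -0.0303 at the base, so the numbers were not taken as pairs. With 1 array left out, the tip count ran from 116 (cov tip array 1 omitted) to 350, and was 132 with cov tip array 2 omitted, and 181 and 176 with wild type tip arrays 1 and 2 omitted in turn. The tip-against-base count of 342 fell to 227 without the trend and 139 with no filter, and ran from 111 (cov tip array 2 omitted) to 465 (cov base array 1 omitted) in the omissions. The cause was not tested. The 161 named probe sets hold the 119 called ones with 1 gene and uncalled list members. Of the 119, 48 lost their call with no filter, 32 without the trend, 24 with a pseudocount of 1 and 12 with the table median as pseudocount. None of the 119 reversed its direction in any of the alternatives run.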
